A study of Mus musculus with 6 samples.

Results

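The genes described here serve the transport of water, protons and anions across the colonic epithelium. They are 10 named genes: the aquaporins Aqp4 and Aqp8, the proton pump Atp12a, the anion exchangers Slc26a3 and Slc26a2, the carbonic anhydrases Car1, Car2 and Car4, and the chloride secretion genes Cftr and Slc12a2. The probe set of each gene was chosen by its mean over all 6 arrays, the highest among those that name the gene alone. Each of the 10 had a single such probe set, out of 19938 genes with a probe set of their own, so the measured means decided nothing. A floor of 5.81 on the log2 scale, under which signal was treated as dim, was cleared by all 10, which makes them 10 of 12071 genes tested.

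Expression was measured on Affymetrix arrays in colonic epithelial cells, sorted as EpCAM-positive and CD45-negative, of wild-type male BALB/c mice aged 6 weeks. All mice had gone without food for 36 h and then been fed again for 24 h, so no group here shows the colon before the fast or during it. In 3 samples the mice had no treatment (re-fed), and in the other 3 they received antibiotics during re-feeding (antibiotics), whose names and doses are not given in these sources. Samples are labelled as biological replicates, but the number of mice behind each is not stated. The p-values therefore refer to these samples, with each gene's spread between them drawn by the test (limma) toward a spread shared by all genes. The comparison asks how these genes differ in the re-fed colonic epithelium when antibiotics are given.

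The colon takes back most of the water left in the gut contents, drawing it after absorbed salt, and it can also secrete fluid. At the surface, sodium/proton exchange and the chloride/bicarbonate exchange of Slc26a3 together take up salt, while carbonic anhydrases supply the protons and bicarbonate that both exchangers use. Deeper in the crypt, Slc12a2 loads chloride through the basolateral membrane and Cftr releases it into the lumen, and water follows through or between the cells. Atp12a, the non-gastric proton/potassium pump, moves potassium in and protons out at the apical membrane of the colon.

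The values are log2 expression after quantile normalisation, and every difference is antibiotics minus re-fed. Signals of different probe sets are not comparable as levels, so each gene is compared with itself across arrays. The array medians as deposited ran from 5.63 to 6.17. In re-fed replicate 1 and antibiotics replicate 3, 0 probe sets had a value identical to that on any other array, while each pair of the other 4 arrays had 67 to 92 such probe sets. Antibiotics replicate 3 also stood apart in holding 10829 distinct values, where the others held 34568 to 34596. The 4 arrays that share values (re-fed samples 2 and 3, antibiotics samples 1 and 2) are called the common run, an inference from the values and not a label, and differences within them are given beside those over 6 arrays.

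Label and sort were checked against marker genes. Epcam stood at 12.16 ± 0.11 in re-fed and 12.12 ± 0.065 in antibiotics samples (SD, n = 3 per group), and Ptprc, which encodes CD45, lay under the floor at 5.44 ± 0.11 and 5.40 ± 0.12. The T cell list had 1 of 9 genes above the floor (Cd3e), the myeloid list 2 of 9, the list of B and plasma cells 3 of 8 and that of stroma and endothelium 6 of 11. The mean level of these 4 lists ran from 5.14 to 6.06 in re-fed and from 5.09 to 6.09 in antibiotics samples.

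Over 6 arrays 0 of the 10 genes passed limma's test at an adjusted p under 0.05, where 7 of all 12071 genes, 0.058%, did so. At an unadjusted p under 0.05 there were 6 of the 10, 5 lower and 1 higher with antibiotics, where 7.32% of all genes were lower and 5.3% higher by that rule. In 5 genes (Aqp4, Atp12a, Slc26a2, Car2 and Aqp8) every antibiotics sample lay below every re-fed sample, a separation that 10.7% of all genes showed in that direction, and in the other 5 the groups overlapped. The median difference was -0.18 over the 10 genes and 0.0033 over all genes. Within the common run 2 of the 10, Aqp4 and Atp12a, passed, both lower, where 0.34% of all genes passed in that direction. The genes were chosen with earlier results of this comparison known, so these shares describe them and are no independent evidence.

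**Figure D1:**
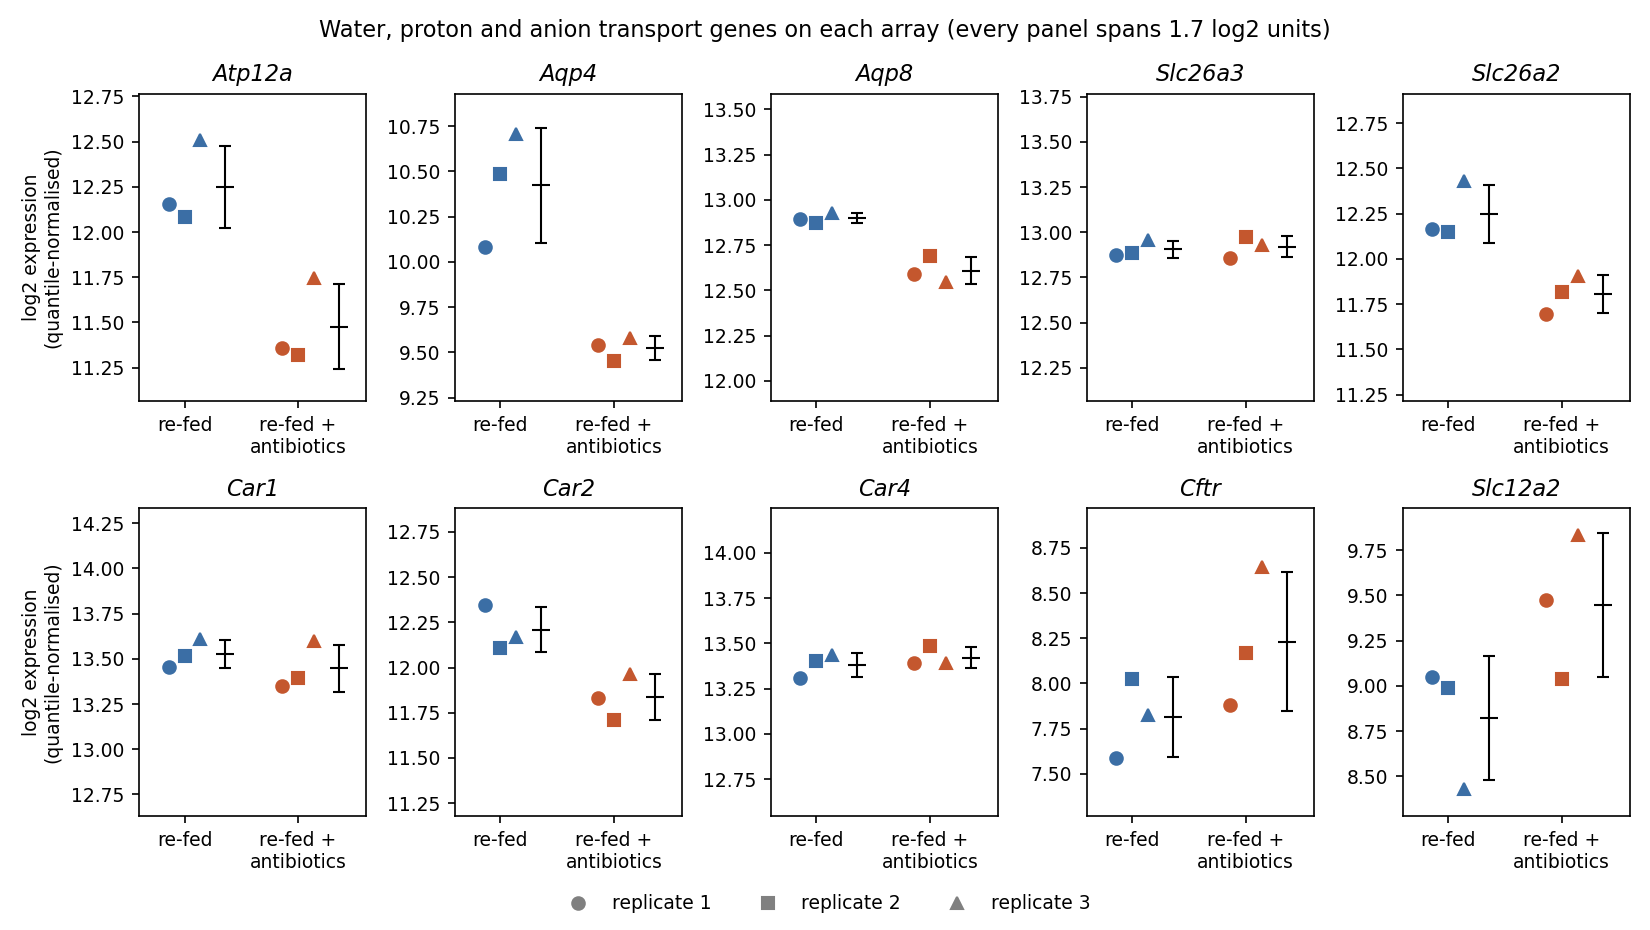
Log2 expression after quantile normalisation (vertical axis) of each gene on each of the 6 arrays, with 1 symbol per replicate number and the group mean ± SD (n = 3) beside the points; all panels span the same number of log2 units. Aqp4 and Atp12a show the widest gaps between the groups (0.50 and 0.34), while the points of Slc26a3, Car4 and Car1 overlap.

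Aqp4, a water channel of the basolateral membrane, had the difference furthest below 0 of the 10 genes. In order of replicate number, its level was 10.08, 10.48 and 10.71 without antibiotics. With them it was 9.54, 9.45 and 9.58. The antibiotics samples lay close together, and the lowest re-fed sample was still 0.50 above the highest of them. The mean was 10.42 ± 0.32 in re-fed and 9.53 ± 0.066 in antibiotics samples, a 1.86-fold lower level (95% confidence interval 1.47 to 2.37). The difference was -0.90 (SE 0.15), rank 36 from the lowest among 12071 genes, with an adjusted p of 0.0779 in limma. Within the common run Aqp4 fell by 1.10 (SE 0.12, adjusted p = 0.0248, limma), or 2.14-fold. It also passed without re-fed replicate 1, the re-fed sample with the least Aqp4 (-1.07, adjusted p = 0.0424). In all, Aqp4 passed in 7 of 15 alternatives, with adjusted p from 0.00277 to 0.315 over the 15. Among those passes is the fit to the deposited values, which gave each of the 10 genes the same SE of 0.27, whatever its own spread. Fewer cells that express a gene and less RNA per cell cannot be told apart in such bulk samples.

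The second aquaporin, Aqp8, is a channel of surface colonocytes that passes water and other small molecules. Re-fed samples held 12.90, 12.87 and 12.93, and antibiotics samples 12.59, 12.69 and 12.55. The re-fed values lay closer to each other than the 0.18 that separated the groups. Aqp8 averaged 12.90 ± 0.029 and 12.61 ± 0.074, a 1.22-fold lower level with antibiotics (-0.29, SE 0.097, unadjusted p = 0.0148 and adjusted p = 0.289 in limma), and the difference was -0.26 in the common run (adjusted p = 0.252). It passed with array weights alone among the 15 alternatives (-0.29, adjusted p = 0.0388).

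Atp12a stood at 12.16, 12.08 and 12.51 in re-fed replicates 1 to 3. With antibiotics it read 11.36, 11.32 and 11.75. Replicate 3 was the highest in each group, and the groups still lay 0.34 apart. The means of 12.25 ± 0.23 and 11.48 ± 0.24 gave a 1.71-fold lower level with antibiotics (95% confidence interval 1.34 to 2.18). The difference of -0.77 (SE 0.15) ranked 53 from the lowest among all genes tested, with an adjusted p of 0.116 in limma. In the common run Atp12a fell by 0.96 (SE 0.15, adjusted p = 0.0467, limma), a 1.94-fold change, and it passed in 3 of the 15 alternatives.

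Slc26a2, a sulfate transporter that shares the SLC26 fold with the chloride/bicarbonate exchanger Slc26a3, takes up sulfate, which cells use to sulfate mucins and proteoglycans. Its level was 12.16, 12.15 and 12.43 in re-fed samples and 11.70, 11.82 and 11.91 in antibiotics samples, with no overlap and a gap of 0.24. Slc26a2 differed by -0.44 (SE 0.12, unadjusted p = 0.0042 and adjusted p = 0.203 in limma), which is a 1.36-fold lower level, and by -0.53 in the common run (adjusted p = 0.114). Markers of goblet cells, which make most sulfated mucin, lay apart between the groups too: the mean deviation of 11 such genes from their 6-array mean ran from 0.072 to 0.29 in re-fed and from -0.47 to -0.035 in antibiotics samples. Their median difference was -0.20, 4 had an unadjusted p under 0.05 on the lower side (7.32% of all genes did) and 1 passed over all genes, Retnlb, a resistin-like protein secreted by goblet cells, which fell by 1.83 (adjusted p = 0.0441, limma) and passed in 9 of 15 alternatives. Without Retnlb, a choice made after seeing the data, the groups nearly met, at 0.052 to 0.20 in re-fed and -0.41 to 0.048 in antibiotics samples. Over antibiotics replicates 1 to 3 the mean deviation of the 11 goblet markers was -0.035, -0.47 and -0.088. That of Slc26a2 from its own 6-array mean was -0.33, -0.21 and -0.12. The part of goblet cells in the Slc26a2 difference was not tested.

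Slc26a3, the exchanger that takes up chloride for bicarbonate at the surface, read 12.87, 12.88 and 12.96 in re-fed samples and 12.86, 12.98 and 12.93 in antibiotics samples. The values interleave, and the difference of 0.016 had a 95% confidence interval of -0.20 to 0.23. Any change beyond 1.18-fold in either direction therefore lies outside that interval. The sign turned in the common run (-0.0047) and with the deposited scaling (-0.12), where the median of all genes was itself -0.12.

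Among the carbonic anhydrases, Car2, the cytosolic enzyme of high activity, was the 1 member whose groups did not overlap. It read 12.35, 12.11 and 12.17 in re-fed samples and 11.83, 11.71 and 11.97 in antibiotics samples. The gap between the groups was 0.14. Car2 differed by -0.37 (SE 0.11, unadjusted p = 0.00942 and adjusted p = 0.258 in limma), a 1.29-fold lower level, and by the same amount in the common run (-0.37, adjusted p = 0.155).

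Car1, a second cytosolic enzyme and a marker of colonocytes, read 13.46, 13.52 and 13.61 without antibiotics and 13.35, 13.40 and 13.60 with them. Its groups overlapped, and the difference was -0.079 (95% confidence interval -0.32 to 0.17), or -0.19 in the common run. Car4, which is anchored to the apical membrane and faces the lumen, read 13.31, 13.41 and 13.43 without and 13.39, 13.49 and 13.39 with antibiotics. Its difference of 0.040 had an interval of -0.18 to 0.26, and the sign turned with the deposited scaling (-0.079). Whether Car2 differed more than Car1 or Car4 was not tested.

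The probe sets of Car1, Car4, Slc26a3 and Aqp8 were among the brightest on the arrays, at the 99.8th percentile of signal or above, a measure of brightness and not of RNA level. Their spread within groups was small: the SD pooled over both groups lay at percentile 3.40 of the genes tested for Slc26a3, 4.01 for Aqp8, 5.49 for Car4 and 27.0 for Car1. Aqp4, at signal percentile 93.7, and Atp12a, at 99.1, lay at SD percentiles 81.8 and 82.2. The part that compression of strong signals on an array plays in these spreads and differences was not tested.

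The differences of both chloride secretion genes lay above 0, with overlapping groups. Slc12a2, the basolateral sodium-potassium-chloride cotransporter, read 9.05, 8.99 and 8.43 in re-fed samples and 9.47, 9.04 and 9.83 in antibiotics samples. Only antibiotics replicate 2 (9.04) lay below a re-fed sample, replicate 1 (9.05). The difference was 0.63 (SE 0.22, unadjusted p = 0.0179 and adjusted p = 0.296 in limma), a 1.54-fold higher level with an interval of 1.10 to 2.17, and it ranked 24 from the highest among all genes tested. The 4 arrays of the common run gave 0.55 (adjusted p = 0.232).

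Cftr, the apical chloride and bicarbonate channel, read 7.59, 8.03 and 7.83 in re-fed samples and 7.88, 8.17 and 8.65 in antibiotics samples. Antibiotics replicate 3 was the highest and re-fed replicate 1 the lowest, and these are the arrays outside the common run. The difference of 0.42 (SE 0.19, unadjusted p = 0.0563 and adjusted p = 0.411 in limma) had a 95% confidence interval of -0.014 to 0.85. It was 0.097 in the common run (95% confidence interval -0.21 to 0.40) and 0.21 without antibiotics replicate 3.

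Both chloride secretion genes are known from crypts, and crypt markers were also highest in antibiotics replicate 3. The mean deviation of 8 genes of the crypt base and of proliferation from their 6-array mean was 0.53 in antibiotics replicate 3 and ran from -0.34 to 0.072 in the other 5 arrays. Of these 8 genes 0 passed over all genes in limma's test, 5 were higher at an unadjusted p under 0.05, where 5.3% of all genes were, and their median difference was 0.40, or 0.22 in the common run. The part of the crypt share in the Slc12a2 and Cftr values was not tested.

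**Figure D2:**
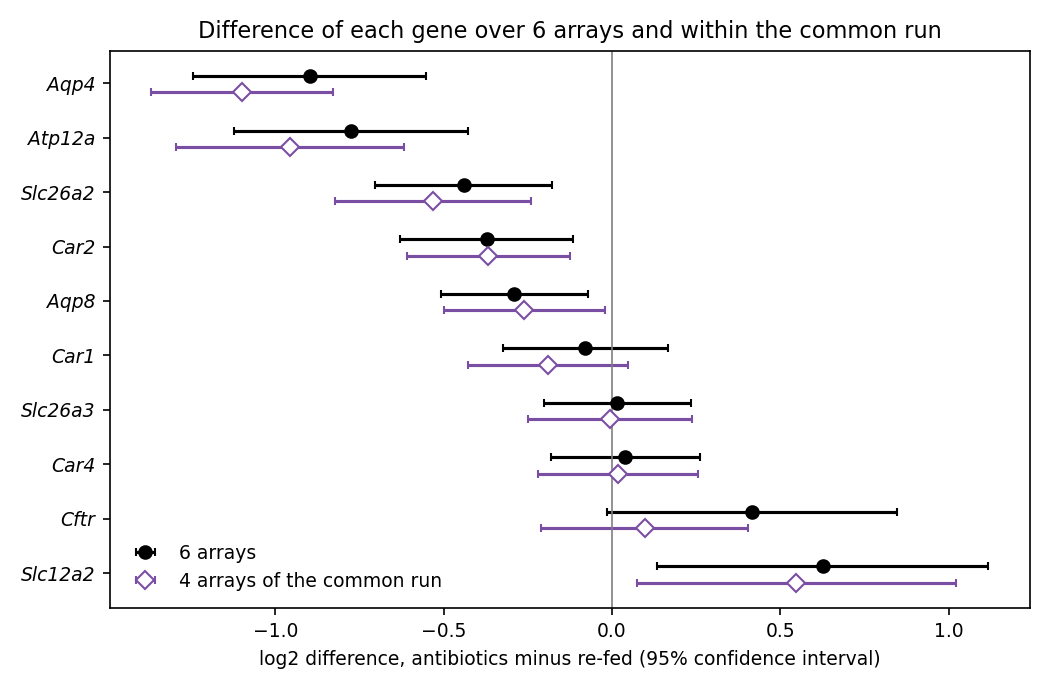
Log2 difference, antibiotics minus re-fed, of each gene with its 95% confidence interval from limma (horizontal axis), over 6 arrays (filled circles) and within the 4 arrays of the common run (open diamonds). Aqp4 (-0.90 and -1.10) and Atp12a (-0.77 and -0.96) lie furthest below 0, and Cftr moves from 0.42 to 0.097. Both intervals of Cftr, Car1, Slc26a3 and Car4 include 0. The signs of Slc26a3 and Car4 turn with the deposited scaling.

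Markers of surface colonocytes, where Aqp8, Slc26a3, Car1 and Car4 are known to be expressed, did not separate the groups by their list mean. Some single genes on the list did, Aqp8 and Krt20 (-0.46, SE 0.12) among them, both lower with antibiotics. Of all genes, 10.7% separated in that direction. The differences of the 15 genes tested on the list ran from -0.88 to 0.52, with 9 below 0 and 6 above. Over all genes 49.3% lay below 0. For the 12 genes on the list that are none of the 10, the mean deviation ran from -0.20 to 0.35 in re-fed samples. It ran from -0.32 to 0.28 in antibiotics samples, and the median difference of these 12 was -0.082. Of all 15 genes on that list 0 passed in limma's test, and 3 lower, Aqp8 among them, and 1 higher had an unadjusted p under 0.05, where 12.6% of all genes had one. Pan-epithelial genes did separate them, with mean deviations over 9 genes of 0.027 to 0.092 in re-fed and -0.073 to -0.050 in antibiotics samples. Of the 9, 8 lay below 0, where 49.3% of all genes did, with a median of -0.069, and 0 passed in limma's test. At an unadjusted p under 0.05, where 7.32% of all genes were lower and 5.3% higher, 2 of the 9 were lower and 1 higher. Krt18, a keratin of simple epithelia, differed most (-0.59, SE 0.094, adjusted p = 0.0692). Without it, a choice made after seeing the data, the range was -0.00083 to 0.067 in re-fed and -0.047 to -0.020 in antibiotics samples. The part of this list in the lower values of the transport genes was not tested.

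Posterior Hox genes, which mark the distal colon, had a median difference of -0.12 over 7 genes and 0.12 in the common run, and their arrays overlapped as well. How much of each colon segment a sample held is not given in the labels, and its part in the differences was not tested.

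**Figure D3:**
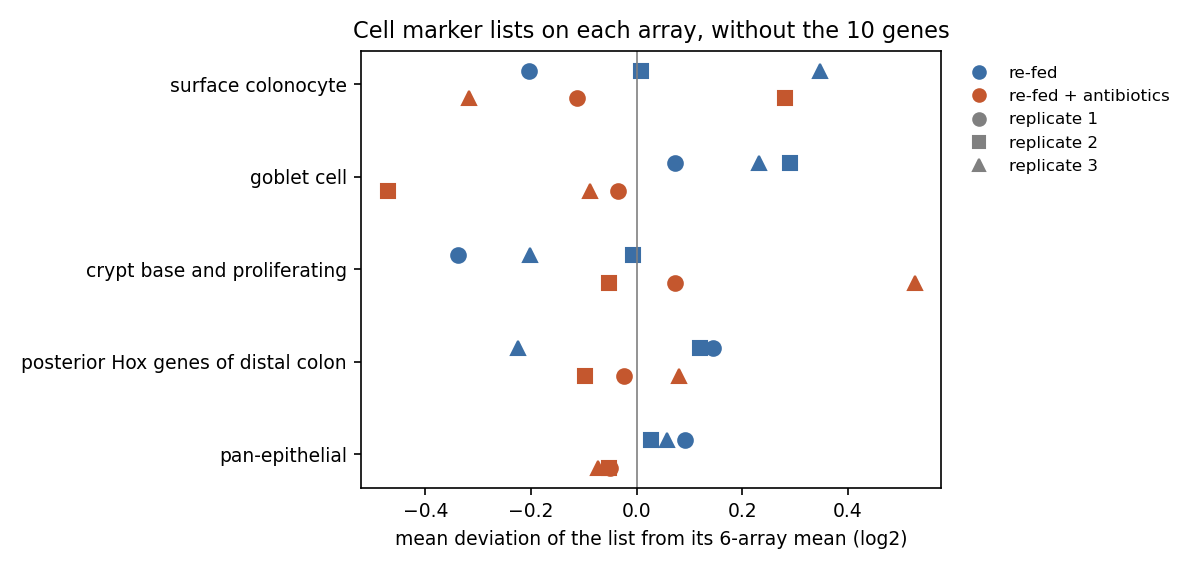
Mean deviation of a marker list from its own 6-array mean, in log2 units (horizontal axis), on each array, with 1 symbol per replicate number. The lists drawn are surface colonocyte, goblet cell, crypt base and proliferating, posterior Hox and pan-epithelial, with the 10 transport genes left out. The other marker lists are not drawn. Surface colonocyte markers overlap between the groups (-0.20 to 0.35 and -0.32 to 0.28), pan-epithelial markers do not (0.027 to 0.092 and -0.073 to -0.050), and crypt markers are highest in antibiotics replicate 3 (0.53).

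The 300-base promoter windows of RefSeq (GRCm38.p6, 250 bases before the annotated start and 50 after) were available for 4 of the 10 genes: Aqp8, Slc26a3, Car4 and Cftr. Only the windows of Aqp8 and Slc26a3, both genes of surface colonocytes, are shown, up to 10 bases past the start. Whether their differences were unequal was not tested. Car4 is also known from surface colonocytes, and its TATA box and CDX matches lie at bases 42 to 48 after the start, beyond such a stretch. Cftr, not shown either, matched the GC box and the CCAAT box. Capitals mark matches, on either strand, to 6 motifs searched: the TATA box TATAAA, the CCAAT box itself, the GC box as GGGCGG, a CDX factor motif written TTTATNG, an HNF4 factor motif written CAAAGTCCA, and the strict palindrome of steroid receptors.
Aqp8, chr7:123462044-123462303, plus strand: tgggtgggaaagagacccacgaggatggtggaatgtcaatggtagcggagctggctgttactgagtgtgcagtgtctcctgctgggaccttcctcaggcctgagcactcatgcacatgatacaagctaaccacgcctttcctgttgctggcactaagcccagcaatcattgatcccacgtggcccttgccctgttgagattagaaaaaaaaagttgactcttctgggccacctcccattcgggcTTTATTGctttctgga
Slc26a3, chr12:31437969-31438228, plus strand: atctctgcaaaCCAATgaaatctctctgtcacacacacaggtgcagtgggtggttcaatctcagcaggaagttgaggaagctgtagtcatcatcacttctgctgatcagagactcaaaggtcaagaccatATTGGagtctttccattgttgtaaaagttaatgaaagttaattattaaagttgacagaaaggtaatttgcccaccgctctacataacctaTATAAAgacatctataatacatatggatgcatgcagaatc
In Aqp8 the 1 match is TTTATTG, a CDX motif that begins 6 bases before the start and ends on the first base after it. Slc26a3 holds TATAAA from 30 to 25 bases before the start, CCAAT from 239 to 235 bases before it and the same motif on the opposite strand from 120 to 116 bases before it, and no 2 matches overlap. The RefSeq table holds 32851 windows of this length, of which 10.9% have a CDX match, 13.6% the TATA box and 37.4% the CCAAT box. A match is a description of letters, not a site of binding.

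The neighbours of these genes in ion transport were read from 8 lists that hold 113 genes, of which 77 were tested. Of the 77, 0 passed over all genes in limma's test, either over 6 arrays or in the common run, and 15 (19.5%) had an unadjusted p under 0.05, 11 lower and 4 higher, where 12.6% of all genes did. Their median difference was -0.020.

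Of the carbonic anhydrases beyond the 3 above, 6 of 13 were tested, and 4 of these had an unadjusted p under 0.05, all lower with antibiotics, a rule that 7.32% of all genes met in that direction. Car9, a membrane enzyme known as a target of hypoxia signalling, read 9.39, 9.29 and 9.44 in re-fed and 8.72, 8.80 and 8.46 in antibiotics samples. The groups lay 0.49 apart, and the difference was -0.71 (SE 0.12, adjusted p = 0.0718 in limma), a 1.64-fold lower level, or -0.61 in the common run (adjusted p = 0.0711). Car12, another membrane enzyme, differed by -0.63 (SE 0.17, adjusted p = 0.204) and the cytosolic Car13 by -0.36 (SE 0.13, adjusted p = 0.316), both without overlap. The fourth, named after its values were seen, was Car8, a relative without enzyme activity, which differed by -0.40 (SE 0.17) with overlapping groups. The median over the 6 was -0.38, or -0.53 in the common run, and it was -0.091 over all 13 with no floor for dim signal.

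Of the other aquaporins, 6 of 9 were tested, and 5 lay above 0 and 1 below, where 49.3% of all genes lay below. Their median was 0.084. Aqp1, a water channel of endothelium and some epithelia, read 6.36, 6.94 and 6.49 in re-fed and 7.34, 7.03 and 7.04 in antibiotics samples, a difference of 0.54 (SE 0.16, adjusted p = 0.254 in limma). These signals lie near the floor of 5.81. The stroma and endothelium list had a median difference of 0.16 over its 6 tested genes, 5 of them above 0, and its mean deviations overlapped between the groups (-0.076 to 0.022 in re-fed and -0.025 to 0.11 in antibiotics samples). Its part in the Aqp1 difference was not tested. Aqp3, a basolateral channel for water and glycerol, differed by 0.19 (SE 0.14) and Aqp11, a channel of intracellular membranes, by -0.26 (SE 0.17).

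Among 16 genes of sodium absorption, 2 had an unadjusted p under 0.05 on the lower side and 1 on the higher. Of all genes, 7.32% did so on the lower side and 5.3% on the higher. Slc9a3, the apical sodium/proton exchanger that works beside Slc26a3, read 12.04, 12.02 and 12.53 in re-fed and 11.50, 11.71 and 11.49 in antibiotics samples, with no overlap (-0.63, SE 0.15, adjusted p = 0.17 in limma). The sodium channel subunit Scnn1a was lower in every antibiotics sample (10.59, 10.88 and 10.55) than in any re-fed sample (11.22, 11.23 and 11.29). A second subunit, Scnn1g, read 9.02, 8.82 and 9.04 with and 8.65, 7.96 and 8.82 without antibiotics, so the groups almost touched, with a difference of 0.48 (SE 0.20, adjusted p = 0.369).

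In chloride and potassium secretion, 14 genes were tested, with a median of -0.049. This median was -0.14 without re-fed replicate 1 and turned sign without re-fed replicate 3 (0.031) or antibiotics replicate 3 (0.030). At an unadjusted p under 0.05 in limma, where 7.32% of all genes were lower and 5.3% higher, 3 of the 14 were lower and 1 higher. Kcne3, the subunit that keeps a basolateral potassium channel open for chloride secretion, differed by 0.63 (SE 0.22, adjusted p = 0.301 in limma) with overlapping groups. It was highest in antibiotics replicate 3 (10.19) and lowest in re-fed replicate 3 (8.77), the same arrays as for Slc12a2. The potassium channel Kcnk5 (-0.40, SE 0.14) and the prostaglandin receptor Ptger4 (-0.28, SE 0.11) were lower in every antibiotics sample than in any re-fed sample, at adjusted p of 0.295 and 0.346.

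Bicarbonate and proton handling had 9 genes tested, 6 above and 3 below 0, where 49.3% of all genes lay below. None had an unadjusted p under 0.05, where 12.6% of all genes had one. Slc4a4, the basolateral sodium-bicarbonate cotransporter, differed by 0.33 (SE 0.16) and by 0.60 in the common run (adjusted p = 0.0729 in limma), and antibiotics replicate 3 (11.06) lay among the re-fed values (11.27, 10.97 and 11.02). The basolateral anion exchanger Slc4a2 differed by -0.27 (SE 0.14), and the bicarbonate transporter Slc4a8 by 0.17 (SE 0.10) at a signal near the floor.

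Of the other SLC26 and SLC12 genes, 7 of 14 with a probe set were tested and the rest lay under the floor. Their differences ran from -0.047 to 0.18. The 3 with the smallest p were Slc12a3 (0.18, SE 0.12), Slc26a11 (0.10, SE 0.13) and Slc26a10 (0.064, SE 0.12), all with overlapping groups. The signals of Slc12a3 and Slc26a10 lay near the floor. Kinases and channels of cell volume and cotransport numbered 10 tested genes, 8 below 0, where 49.3% of all genes were, with a median of -0.13. Lrrc8d, a subunit of the volume-regulated anion channel, differed by -0.50 (SE 0.13, adjusted p = 0.203 in limma) without overlap. Oxsr1, a kinase that activates Slc12a2, averaged 9.16 ± 0.062 in re-fed and 8.97 ± 0.039 in antibiotics samples, without overlap (-0.19, SE 0.097, adjusted p = 0.447). Wnk4, a kinase upstream of it, differed by -0.19 (SE 0.12) with overlap.

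Partners of sulfate use were read beside Slc26a2. Papss1, which makes the activated sulfate donor, read 9.72, 9.65 and 9.72 in re-fed and 9.42, 9.52 and 9.45 in antibiotics samples (-0.23, SE 0.096, adjusted p = 0.368 in limma). Slc13a1, a sodium-sulfate cotransporter, differed the other way by 0.81 (SE 0.32, adjusted p = 0.353), with a wide spread in re-fed samples (7.61 to 8.98) and overlapping groups. Bpnt1, a phosphatase of the sulfation pathway, differed by -0.16 (SE 0.12). The median over the 9 genes tested was -0.0014, and it ran from -0.076 to 0.077 when 1 array was left out.

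**Figure D4:**
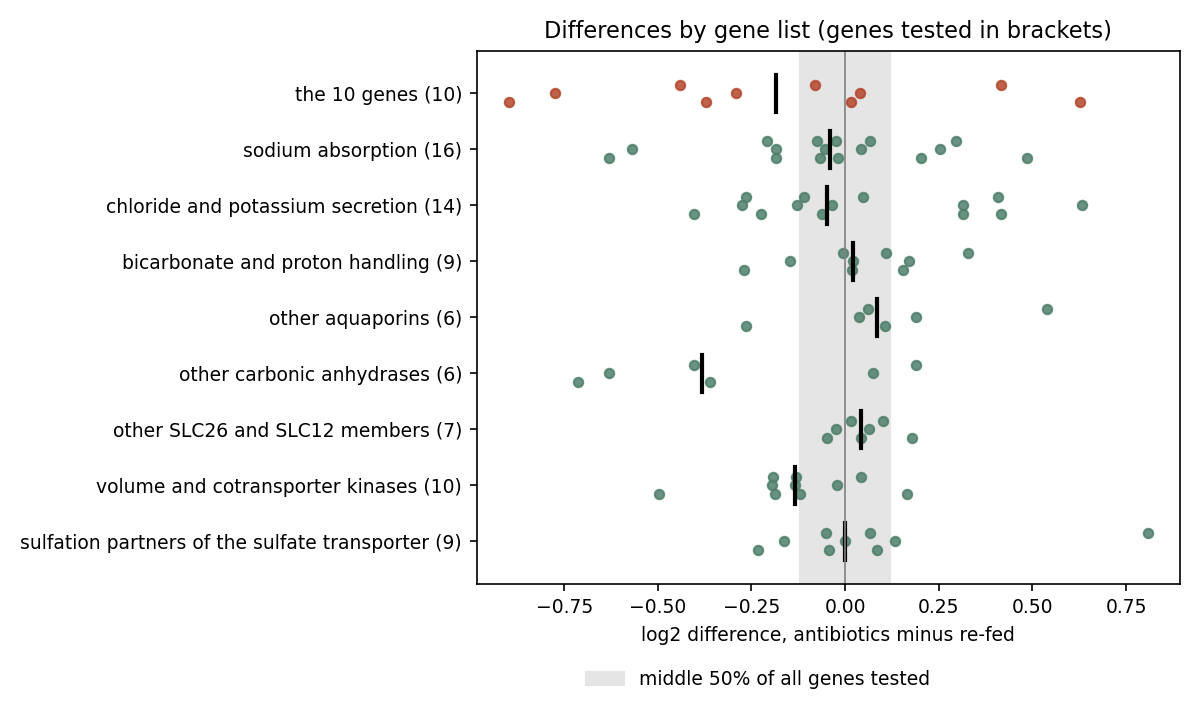
Log2 difference, antibiotics minus re-fed (horizontal axis), of every gene tested among the 10 transport genes and in the 8 neighbouring lists, 1 point per gene, with a black bar at each median and the middle 50% of all 12071 genes shaded (-0.12 to 0.12). The medians are -0.18 for the 10 genes and -0.38 for the other carbonic anhydrases, and the remaining lists lie between -0.13 and 0.084.

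Slc12a2 had the widest range over the 6 arrays of the 10 genes (8.43 to 9.83). The 5 other tested genes whose levels followed it most closely over the 6 arrays, by Pearson's r, were Uck2, a nucleoside kinase (0.999), Ppia, the prolyl isomerase cyclophilin A (0.997), Ccdc86 (0.994), Mcc (0.994) and Rcc2 (0.994). They are the best of all genes tested over only 6 arrays that share a treatment contrast, and each was highest in antibiotics replicate 3 and lowest in re-fed replicate 3, as Slc12a2 was.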

How the data were processed

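Per the labels' protocols, biotin-labelled RNA of 6 samples, 3 per group, went onto Affymetrix arrays. Groups and replicate numbers come from the sample titles. The deposited log2 values of 35557 probe sets were made by the authors with RMA, per the submitters' processing notes; its version is not given in the sources used here. Because the deposited medians differ, the arrays were quantile-normalised again on the 23410 probe sets that name a gene. A gene took the probe set that names it alone with the highest mean (21789 such probe sets), and genes whose mean fell below the 40th percentile were dropped as dim. The test was limma 3.58.1 under R 4.3.3 (lmFit, eBayes, two-sided), with Benjamini-Hochberg adjustment over 12071 genes and a threshold of 0.05; the fit was tested on simulated data. Errors are SDs over 3 arrays or limma's standard errors, and the number of arrays limits the precision.

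Members and lists were chosen with earlier results of these data known. The naming rule took all 10 members, in each pathway list any gene past the threshold and otherwise the 3 with the smallest p, Epcam, Ptprc, and the 5 genes most like the member of widest range. The 12 marker lists also covered enteroendocrine cells (median difference -0.039), tuft cells (-0.16) and small-intestinal cells (0.005). Same-numbered samples did not deviate together (r = 0.021, -0.034 and -0.22), so no pairing was used.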

Additional observations from a re-analysis of the deposited data

How the results depend on the processing

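The difference kept its sign under all 15 alternatives for 8 of the 10 genes, the exceptions being Slc26a3 and Car4. Of the 10, the number past the threshold was 0 and became 1 with the deposited scaling, with the stricter filter or with an intensity trend, 2 with arrays shifted to 1 median or in the common run, and 6 with array weights; without each replicate in turn it was 0 or 1. Their median difference of -0.18 became -0.31 with the deposited scaling and -0.27 with median shifts, where the median of all genes was -0.12 and -0.080, and without each replicate in turn it ran from -0.21 to -0.16. Over all genes the count of 7 became 45 with the deposited scaling, 62 with median shifts, 54 in the common run, 2 with no filter, 43 with the stricter filter or with a trend, and 1169 with array weights, and it ran from 0 to 11 without each replicate in turn. The 0 came without antibiotics replicate 1, where 1040 genes had an unadjusted p under 0.05 in limma. The replicate block also gave 7 genes, 3 of them shared with the fit without it, and 0 of the 10. The cause of these shifts was not tested. With the deposited scaling each of the 10 genes had the same SE of 0.27, so the calls of that fit take no account of a gene's own spread. Signal over background limits Aqp1 and other genes near the floor of 5.81.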
